A study of Rattus norvegicus with 10 samples.

Results

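The genes described here are circadian output factors, the transcription factors and enzymes that the molecular clock drives and through which it reaches other genes. The list held 9 genes, *Dbp*, *Tef*, *Hlf*, *Nfil3*, *Ciart*, *Bhlhe40*, *Bhlhe41*, *Usp2* and *Wee1*, and was drawn up with the comparison of these same arrays known. Probes were assigned to a gene by their transcript accession, which matched 7 of the 9 genes to 9 of the 30367 probes on the array. No probe was matched to *Hlf* or *Bhlhe41*, which were not analysed here. *Dbp* had 3 probes and the other 6 genes had 1 each, and all 9 probes were well above background on all 10 arrays.

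RNA of the trigeminal ganglion (TG), which holds the cell bodies of the sensory neurons of the face and mouth, was measured on 1-colour Agilent rat arrays in 5 rats with oral ulcerative mucositis (OUM) and 5 naive rats, with 1 array per rat. All were male Wistar rats and the naive rats were age-matched. In the OUM model, filter paper with 50% acetic acid lay for 30 s on the labial fornix below the lower incisors under anesthesia, and TGs were taken on day 2. Naive rats had anesthesia alone. Both TGs of a rat were taken whole after perfusion with saline, so the tissue also holds regions that do not innervate the ulcer. The rats lived on a light-dark cycle, and the time of day at which each TG was dissected is not given in the sources used here.

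In the core loop of the mammalian clock, CLOCK and BMAL1 bind E-boxes and switch on *Per* and *Cry* genes, whose proteins then repress CLOCK and BMAL1. The PAR bZIP factors DBP, TEF and HLF are outputs of this loop and activate genes with D-boxes, while NFIL3 represses at the same sites. CIART, also named CHRONO, and the DEC proteins encoded by *Bhlhe40* and *Bhlhe41* repress E-box genes. USP2 removes ubiquitin from proteins, clock proteins among them, and WEE1 is a kinase that holds cells before mitosis and is also made in cells that do not divide.

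The DNA before the gene start, where clock factors bind many of their targets, is shown for 4 genes, *Dbp*, *Tef* and *Ciart* because they head the list and *Per2* because its Pearson correlation with *Dbp* within groups was the highest of the 12 genes tested, although *Ciart* was highest by rank correlation. Each is the 250 bases before the RefSeq start of the gene on build GRCr8, read 5′ to 3′ on the strand of the gene, with motif matches in capitals. The windows are chr1:105312006-105312255 (plus strand) for *Dbp*, chr7:115206577-115206826 (plus strand) for *Tef*, chr2:186112247-186112496 (minus strand) for *Ciart* and chr9:99496994-99497243 (minus strand) for *Per2*.
Dbp: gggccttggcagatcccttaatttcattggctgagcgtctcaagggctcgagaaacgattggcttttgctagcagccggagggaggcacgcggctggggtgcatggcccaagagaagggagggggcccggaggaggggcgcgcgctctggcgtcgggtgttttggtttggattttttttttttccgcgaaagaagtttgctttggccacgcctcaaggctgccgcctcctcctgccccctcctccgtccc
Tef: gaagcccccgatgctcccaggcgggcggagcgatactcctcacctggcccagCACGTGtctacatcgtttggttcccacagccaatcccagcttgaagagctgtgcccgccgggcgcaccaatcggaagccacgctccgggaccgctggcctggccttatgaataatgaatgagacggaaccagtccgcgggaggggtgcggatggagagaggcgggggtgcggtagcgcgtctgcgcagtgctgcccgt
Ciart: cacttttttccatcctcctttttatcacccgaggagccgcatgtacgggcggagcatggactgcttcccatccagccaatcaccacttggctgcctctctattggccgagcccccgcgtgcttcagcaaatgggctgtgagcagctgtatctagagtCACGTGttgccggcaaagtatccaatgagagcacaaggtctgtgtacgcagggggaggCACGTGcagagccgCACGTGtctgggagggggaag
Per2: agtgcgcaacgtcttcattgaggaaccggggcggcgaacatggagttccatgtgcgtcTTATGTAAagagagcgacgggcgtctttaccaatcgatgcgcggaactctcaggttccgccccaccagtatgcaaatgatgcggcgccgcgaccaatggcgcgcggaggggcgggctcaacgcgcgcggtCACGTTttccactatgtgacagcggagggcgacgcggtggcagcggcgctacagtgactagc

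The motifs searched were the E-box CACGTG, which reads the same on both strands, the variant E-box CACGTT, searched on the opposite strand as AACGTG, the D-box TTATGTAA, searched on the opposite strand as TTACATAA, and its palindromic form TTACGTAA. No match overlapped another in the windows of the listed genes. The *Ciart* window held 3 E-boxes, whose first bases lay 93, 35 and 21 bases before the start. Among 33469 RefSeq windows of 250 bases, 1872 (5.59%) held at least 1 E-box and 17 (0.0508%) held 3 or more. The *Tef*, *Bhlhe40* and *Bhlhe41* windows held 1 E-box each, at 198, 220 and 48 bases before the start, so that 4 of the 7 listed genes with a window had one. The *Per2* window held a D-box 192 bases and a variant E-box 62 bases before the start, and these motifs were present in 0.828% and 4.07% of all windows. The letters of none of the 4 motifs were found in the windows of *Dbp*, *Nfil3* and *Usp2*, and the palindromic D-box was in no listed window and in 0.108% of all. A match describes letters in the sequence and not binding.

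**Figure D1:**
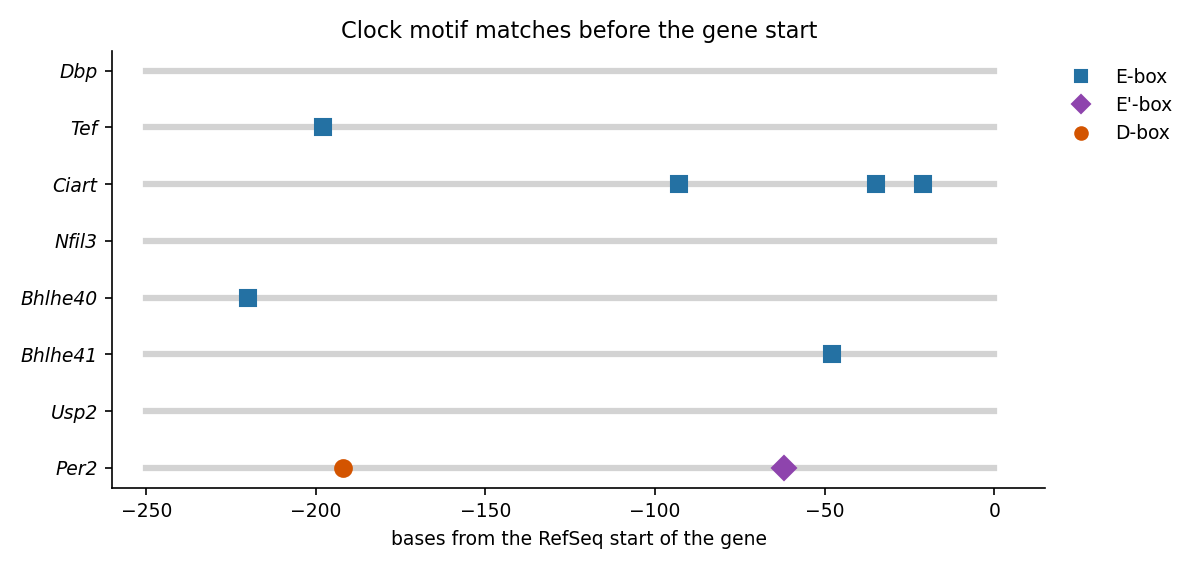
Positions of motif matches in the 250 bases before the RefSeq start of 7 listed genes and *Per2*. The x axis is the distance in bases from the start, and each symbol is the first base of a match. *Ciart* holds 3 E-boxes, and *Per2* holds the D-box shown.

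Signals are given as log2 of the processed signal relative to the 75th percentile of the array, so 0 is the 75th percentile and a difference of 1 is 2-fold. That percentile was 2620.3 to 2949 signal units, and each array had 70.9% to 77.2% of its probes well above background. The arrays lay on 2 slides, with 3 OUM and 4 naive arrays on slide 1 and 2 OUM (rats 4 and 5) and 1 naive (rat 4) on slide 2. The log2 of the summed signal of sensory neuron markers was near the same level in all arrays, at 8.57 to 8.84 in OUM and 8.66 to 8.78 in naive TGs. Bright markers dominate this sum. Taken singly, 3 of 10 had a higher mean in OUM TGs, and the median difference was -0.06. *Scn9a* was lower in every OUM rat than in every naive rat, with a difference of -0.15. The summed signal of markers of the pituitary, an organ beside the TG, ranged widely over the 6 of 8 markers tested. Its log2 was 0.09 to 4.70 in OUM and -1.54 to 4.41 in naive TGs, highest in OUM rats 1 and 2 and naive rat 1. In whole tissue, more RNA per cell and more cells that make it cannot be told apart.

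Because the list was chosen on this contrast, its differences between OUM and naive rats are given as a description with no test. All 7 measured genes had a higher mean in OUM TGs. The median difference was 0.30, against -0.01 over all 19271 features tested, of which 45.7% were above 0. In 4 of the 7 genes, *Dbp*, *Tef*, *Ciart* and *Wee1*, the lowest of the 5 OUM values exceeded the highest of the 5 naive values, which held for 153 features or 0.794% of those tested. The opposite order held for 1.02% of features and for none of the 7.

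*Dbp*, the namesake of the PAR bZIP family and one of the most strongly rhythmic transcripts known, had log2 signals of 3.27, 3.34, 3.42, 3.64 and 3.60 in OUM rats 1 to 5, against 2.77, 2.50, 2.57, 2.89 and 3.09 in naive rats 1 to 5. The lowest OUM rat was 0.18 above the highest naive rat. In signal units the brightest probe averaged 31289.8 in OUM and 18879 in naive TGs. The means were 3.45 ± 0.16 in OUM and 2.76 ± 0.24 in naive TGs (SD, n = 5 each), a difference of 0.69 with a standard error (SE) of 0.12 and a fold of 1.61. The dimmer probes of *Dbp* gave differences of 0.65 and 0.66, also with no overlap of the groups. Over the 10 rats, the deviations from the group means on the 3 probes correlated at r = 0.98, 0.96 and 0.99, where the probes share their RNA and array. OUM rats 4 and 5, both on slide 2, were the highest, and OUM rats 1 and 2 the lowest of their group. The difference was 0.61 within slide 1, 0.73 within slide 2, where 2 OUM arrays stand against 1 naive array, and 0.64 with slide as a block. Without the 3 pituitary-rich arrays it was 0.79.

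**Figure D2:**
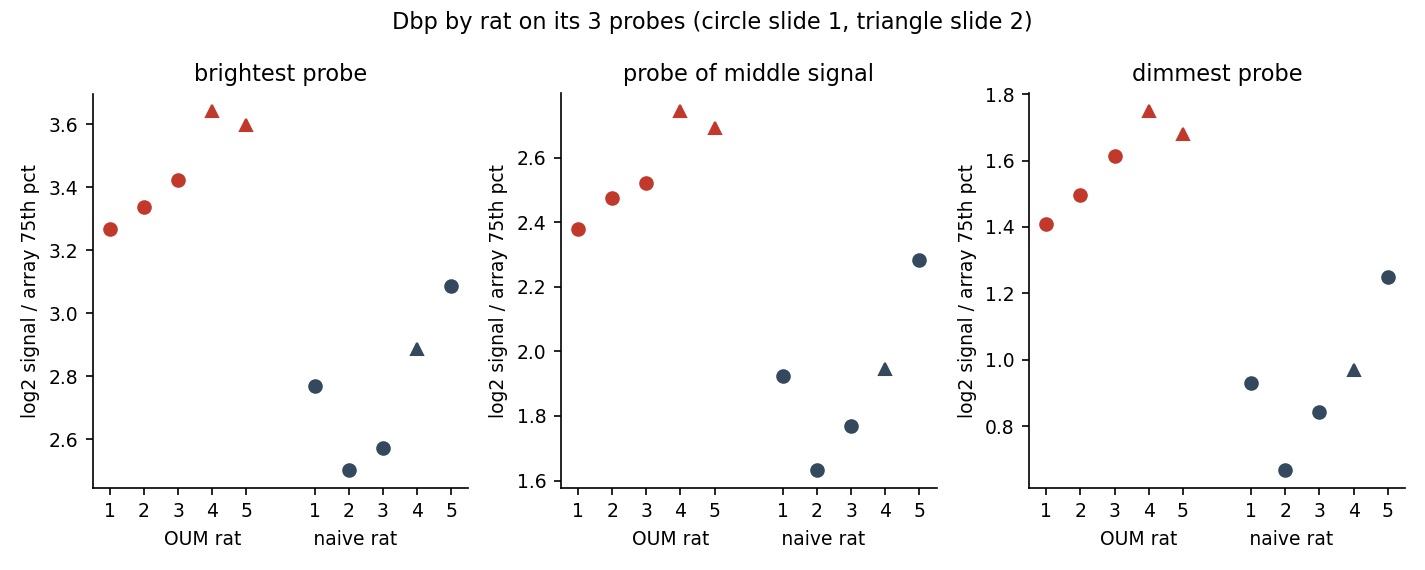
*Dbp* in each rat on its 3 probes, OUM rats left and naive rats right, as log2 signal relative to the 75th percentile of the array. Circles are slide 1 and triangles slide 2, and on each probe all 5 OUM rats lie above all 5 naive rats.

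*Tef*, which encodes the second of the PAR bZIP activators, was tight within groups. Its 10 spots per array gave 1.28, 1.29, 1.23, 1.37 and 1.26 in OUM rats 1 to 5, against 0.90, 0.97, 0.96, 1.06 and 1.04 in naive rats 1 to 5. The means were 1.29 ± 0.05 in OUM and 0.99 ± 0.07 in naive TGs (SD, n = 5 each), a difference of 0.30 (SE 0.05) and a fold of 1.23. The gap between the groups was 0.17, wider than either SD. The difference was 0.30 within slide 1 and 0.25 within slide 2. The difference and the spread of *Tef* were both smaller than those of *Dbp* on the log2 scale.

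*Nfil3*, the repressor that competes with these factors at D-boxes, was dim, with a mean signal of 130.5 units in OUM and 119 in naive TGs. Its log2 signals were -4.50, -4.34, -4.38, -4.37 and -4.64 in OUM rats 1 to 5, against -4.63, -4.50, -4.41, -4.53 and -4.62 in naive rats 1 to 5. The groups overlapped, 3 of 5 OUM rats were above all naive rats, and the lowest value of all was that of OUM rat 5. The difference was 0.09 with an SE of 0.07.

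*Ciart*, the E-box repressor whose window holds the 3 E-boxes printed above, had the largest difference of the 7 measured genes. It was measured on 1 spot per array and was dim, at 165, 184, 209, 382 and 283 signal units in OUM rats 1 to 5 and at 110.1, 95.0, 103, 141 and 118 in naive rats 1 to 5. On the log2 scale these were -4.05, -3.96, -3.72, -2.95 and -3.35 in OUM rats 1 to 5, against -4.60, -4.88, -4.83, -4.31 and -4.47 in naive rats 1 to 5. OUM rats 4 and 5 stood highest, and the lowest OUM rat was 0.26 above the highest naive rat. The means were -3.61 ± 0.46 in OUM and -4.62 ± 0.24 in naive TGs (SD, n = 5 each), a difference of 1.01 (SE 0.21) and a fold of 2.02. The difference was 0.78 within slide 1, 1.16 within slide 2 and 0.89 with slide as a block. It was 1.28 without the 3 pituitary-rich arrays. With another background correction, the normexp alternative described under processing, it was 0.68. That was below the 0.72 of *Dbp* in the same setting, so *Ciart* was not the largest there.

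*Bhlhe40*, the DEC1 repressor, was at -3.63, -3.58, -3.72, -3.54 and -3.65 in OUM rats 1 to 5, against -3.87, -4.10, -4.07, -3.82 and -3.59 in naive rats 1 to 5. Naive rat 5, which was also the naive rat with the most *Dbp*, reached the OUM range, and 2 of 5 OUM rats lay above all naive rats. The difference was 0.26 (SE 0.09). The spread was wider in naive TGs, with an SD of 0.07 in OUM and 0.21 in naive TGs.

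*Wee1* was at -0.24, -0.28, -0.24, -0.12 and -0.08 in OUM rats 1 to 5, against -0.69, -0.58, -0.70, -0.28 and -0.45 in naive rats 1 to 5. The difference was 0.35 (SE 0.08) and the fold 1.27. Its groups touched: OUM rat 2 exceeded naive rat 4 by 0.000392, so the count of 4 genes without overlap rests for *Wee1* on a gap far below the SD of 0.08 in OUM and 0.18 in naive TGs. Naive rat 4 is the naive array of slide 2, and the difference was 0.35 within slide 1 and 0.18 within slide 2.

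*Usp2* overlapped between the groups. Its log2 signals were -0.08, -0.24, -0.04, 0.08 and 0.01 in OUM rats 1 to 5, against -0.28, -0.20, -0.27, 0.05 and -0.20 in naive rats 1 to 5. Only OUM rat 4 lay above all naive rats, and naive rat 4 stood above the other naive rats. The difference was 0.13 (SE 0.08), with 0.12 within slide 1 and -0.0020 within slide 2. The slide 2 rats had the most *Usp2* in both groups, as they had the most *Ciart* and *Wee1*. The slide moved with these genes, and its part in their spread was not tested beyond the values by slide given here.

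**Figure D3:**
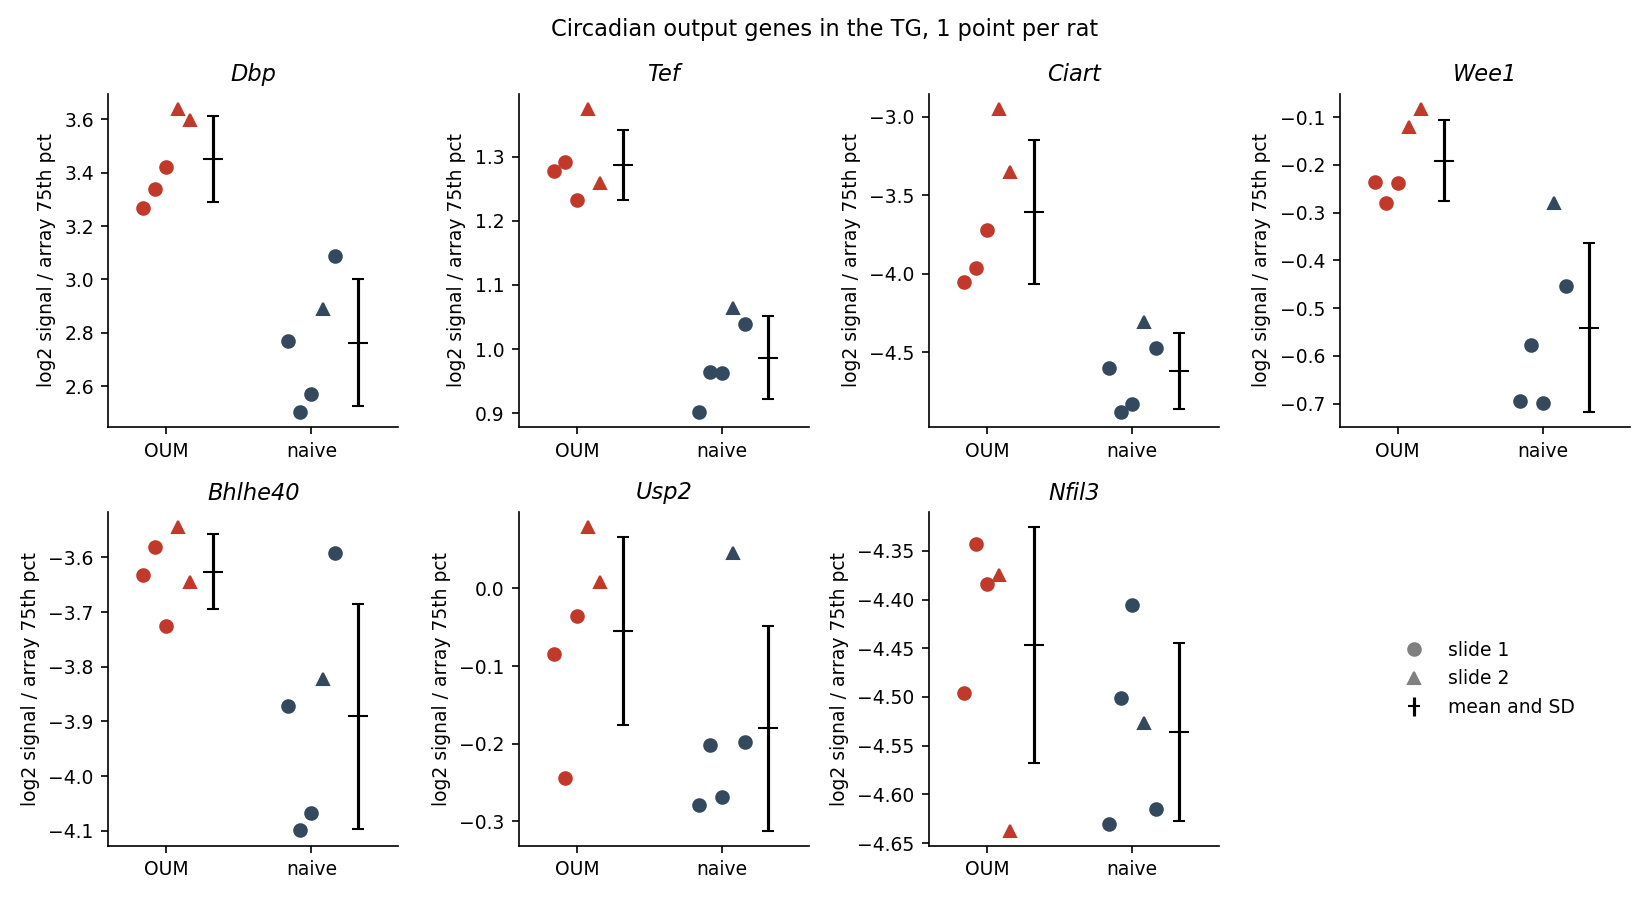
Log2 signal relative to the 75th percentile of the array for the 7 measured output genes, OUM left and naive right, 1 point per rat with the group mean and SD beside it. Circles are slide 1 and triangles slide 2. *Dbp*, *Tef* and *Ciart* separate the groups by 0.17 to 0.26, *Wee1* by 0.000392, and *Bhlhe40*, *Usp2* and *Nfil3* overlap.

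The deviations of the rats from their own group means are independent of the difference between the groups, so the correlation of other clock genes with *Dbp* within groups was tested, over 10 rats and 12 genes with an exact permutation test within groups (two-sided) and Benjamini-Hochberg adjustment. *Ciart* followed *Dbp* with r = 0.81 (exact p = 0.00153, adjusted p = 0.00917). Spearman's rho, on ranks within each group, was 0.95 (exact permutation p = 0.00125, adjusted p = 0.015), with r = 0.97 among OUM and 0.85 among naive rats. *Per2*, a core loop repressor, followed with r = 0.95 (exact p = 0.00118, adjusted p = 0.00917), and r was 0.87 among OUM and 0.98 among naive rats. Its rho was 0.80 (exact permutation p = 0.0192, adjusted p = 0.115), which does not pass the adjustment. Rats with more *Dbp* than others of their group thus had more *Ciart* and *Per2*. With naive rats 2 and 3 left out, whose *Dbp* levels were farthest from the median, r was 0.81 for *Ciart* and 0.90 for *Per2*. With naive rats 5 and 2 left out, whose *Dbp* deviations were farthest, r was 0.95 for *Ciart* (exact permutation p = 0.00139, adjusted p = 0.0167) and 0.91 for *Per2* (exact permutation p = 0.0139, adjusted p = 0.0833), so *Per2* no longer passed. After removing slide means as well, r was 0.77 for *Ciart* (exact permutation p = 0.00347, adjusted p = 0.0417) and 0.92 for *Per2* (exact permutation p = 0.0556, adjusted p = 0.219).

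*Bhlhe40* had r = 0.82 (exact p = 0.0125, adjusted p = 0.05), which lies at the threshold, and rho = 0.60 (exact permutation p = 0.109). It passed with the second probe of *Dbp* (r = 0.84, exact permutation p = 0.00917, adjusted p = 0.0367) and with OUM rat 1, 2, 3 or 5 left out, and in no other setting run. Its r was 0.26 among OUM and 0.99 among naive rats, and 0.59 without naive rats 2 and 3. The others did not pass the adjustment for either measure. Among the output genes, r was 0.66 for *Wee1*, 0.53 for *Tef*, 0.51 for *Usp2* and -0.45 for *Nfil3*. Among core loop genes it was 0.58 for *Per1*, 0.57 for *Nr1d1*, 0.18 for *Cry1* and -0.30 for *Per3*. *Bmal1*, the activator that peaks in antiphase to *Per2* in many tissues, had r = -0.62 (exact p = 0.0906, adjusted p = 0.181) with -0.02 among OUM and -0.98 among naive rats. Whether r differs between the groups was not tested. Given as a description, the 5 genes most like *Dbp* by this r, among 11536 genes detected on all arrays, were *Fam76a* (0.98), *Per2* (0.95), *Nmral1* (0.94), *Smim5* (0.94) and *Sh3bp1* (0.93). Counted from the highest r, *Bhlhe40* ranked 87 and *Ciart* 101 among these genes. *Wee1* ranked 699, *Tef* 1650, *Usp2* 1844 and *Nfil3* 9101.

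**Figure D4:**
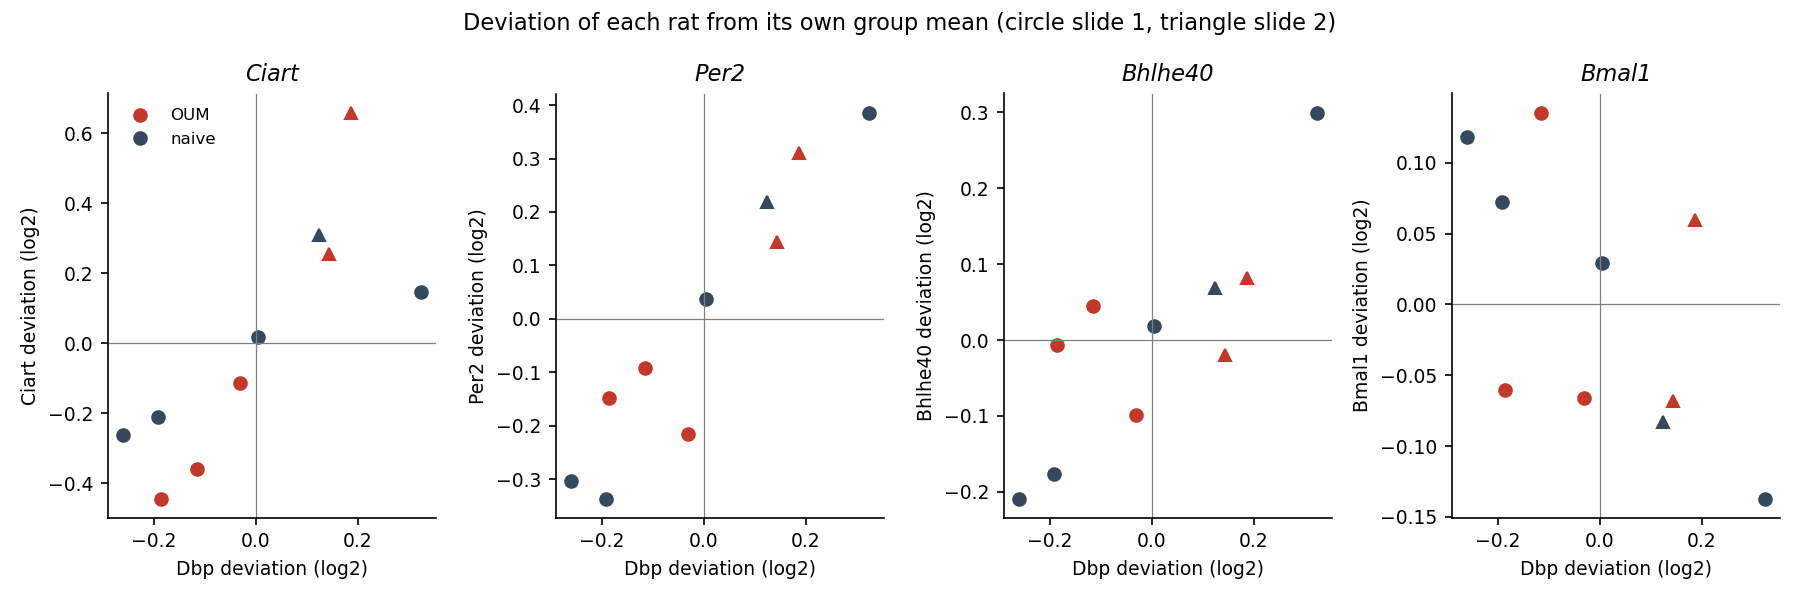
Deviation of each rat from its own group mean, *Dbp* on the x axis and 4 clock genes on the y axes, in log2 units. Red is OUM and dark is naive, with circles for slide 1 and triangles for slide 2. *Ciart* (r = 0.81) and *Per2* (r = 0.95) climb with *Dbp*, and *Bmal1* (r = -0.62) slopes down mainly among naive rats.

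The core loop genes around these outputs were tested with limma over all features. No core loop gene, and none of the further lists, passed an adjusted p of 0.05 with limma or with the methods' t-test. With limma 2 of 19271 features (0.0104%) passed. At an unadjusted p under 0.05, 3 of 13 core loop genes were higher and 1 was lower in OUM TGs, against 3.92% of features higher and 4.91% lower, and their median difference was 0.04. *Bmal1* was at -2.31, -2.11, -2.31, -2.19 and -2.32 in OUM rats 1 to 5, against -1.73, -1.64, -1.68, -1.84 and -1.89 in naive rats 1 to 5, with no overlap. Its difference was -0.49 (SE 0.06, adjusted p = 0.108), lower in 5 of 5 OUM rats, and its dimmer probe gave -0.50. *Per2* was at -3.15, -3.10, -3.22, -2.69 and -2.86 in OUM rats 1 to 5, against -3.73, -4.08, -4.11, -3.55 and -3.39 in naive rats 1 to 5. It was higher by 0.77 (SE 0.16, adjusted p = 0.269), and its groups did not overlap either. An exact permutation test gave p = 0.00794 for *Bmal1* and for *Per2*, the smallest that 252 assignments allow. Any gene without overlap gets this p, so it adds nothing to the lack of overlap. Earlier results of these arrays had been known for *Bmal1*, *Per2*, *Cry1* and *Npas2*. *Bmal1*, *Per2* and *Cry1* are among the genes counted at the unadjusted threshold, so those counts were in part known beforehand.

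*Cry1*, a repressor partner of the PER proteins, differed by 0.27 (SE 0.07, adjusted p = 0.446), and *Nr1d1*, the nuclear receptor that represses *Bmal1*, by 0.32 (SE 0.11, adjusted p = 0.505). Each call at the unadjusted threshold was lost in some settings: *Cry1* on slide 1 alone (0.16), and *Nr1d1* on slide 2 alone (0.13), under the methods' t-test and without the 3 pituitary-rich arrays (0.22). *Per1* did not pass, with 0.17 (SE 0.21) and signals of 3.02, 3.72, 3.08, 4.05 and 4.04 in OUM rats 1 to 5, against 3.54, 3.25, 3.28, 3.52 and 3.45 in naive rats 1 to 5. *Per3* (0.08, SE 0.07) and *Nr1d2* (0.04, SE 0.07) did not pass either, while the dimmer probes of *Per3* gave 0.48 and 0.22. The probes of *Npas2*, a paralog of *Clock*, gave -0.04 and, on the dimmer probe, -0.73.

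Further lists bear on the outputs. Of 10 genes that DBP, TEF or HLF activate in mice, 7 were tested, 2 had an unadjusted p under 0.05 and a higher level in OUM TGs, 0 a lower one, against 3.92% of all features higher and 4.91% lower, and the median difference was 0.03. The 2 were *Por*, the electron donor of the cytochromes P450, at 0.19 (SE 0.07, adjusted p = 0.519), and *Gsta3*, a glutathione transferase, at 0.18 (SE 0.08, adjusted p = 0.558). Within slide 1 the difference was 0.29 for *Por* and 0.20 for *Gsta3*. Within slide 2, with 1 naive array, it was -0.02 for *Por* and 0.03 for *Gsta3*. *Alas1*, the first enzyme of heme synthesis, had 0.01 (SE 0.08), and *Pdxk*, which activates a vitamin, -0.23 (SE 0.24). The count of 2 was 0 without the 3 pituitary-rich arrays, and also 0 without naive rat 1, OUM rat 2 or OUM rat 3 alone.

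Of 9 other genes that cycle in many tissues, the unadjusted threshold was passed by 4 in the higher and 0 in the lower direction, against 3.92% and 4.91% of all features, with a median of 0.12. *Herpud1*, which acts in disposal of misfolded proteins, was higher by 0.32 (SE 0.06, adjusted p = 0.184) with no overlap. *Klf15* had 0.41 (SE 0.11, adjusted p = 0.441), *Lonrf3* 0.34 (SE 0.12, adjusted p = 0.499) and *Tspan4* 0.19 (SE 0.07, adjusted p = 0.521). Within slide 1 and slide 2, the difference was 0.34 and 0.25 for *Herpud1*, and 0.50 and 0.02 for *Klf15*. For *Lonrf3* it was 0.31 and 0.44, and for *Tspan4* 0.13 and 0.30. The glucocorticoid response list was included because the hormone is rhythmic and sets peripheral clocks. It shares *Tsc22d3* and *Cdkn1a* with the cycling genes. Of 16 genes tested, 15 had a difference above 0, against 45.7% of all features. The unadjusted threshold was passed by 4 as higher and 0 as lower, against 3.92% and 4.91% of all features, and the median was 0.24. The 4 were *Map3k6* at 0.31 (SE 0.07, adjusted p = 0.336), *Sgk1* at 0.41 (SE 0.14, adjusted p = 0.499), *Errfi1* at 0.26 (SE 0.09, adjusted p = 0.499) and *Mt2A* at 0.31 (SE 0.12, adjusted p = 0.519). Within slide 1 and slide 2, the difference was 0.36 and 0.13 for *Map3k6*, and 0.46 and 0.13 for *Sgk1*. For *Errfi1* it was 0.33 and 0.01, and for *Mt2A* 0.30 and 0.08. *Fkbp5*, a widely used marker of glucocorticoid action, had 0.29 (SE 0.18), with 0.51 within slide 1 and -0.46 within slide 2. On slide 1 alone, 7 genes of this list were higher and 1 lower at the unadjusted threshold. The share over all features was not computed for slide 1, so this count has no background to be read against. Slide 2 holds 1 naive array, naive rat 4, which alone sets the naive level there, and its counts of 1 higher and 3 lower do not show that the slides differ.

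**Figure D5:**
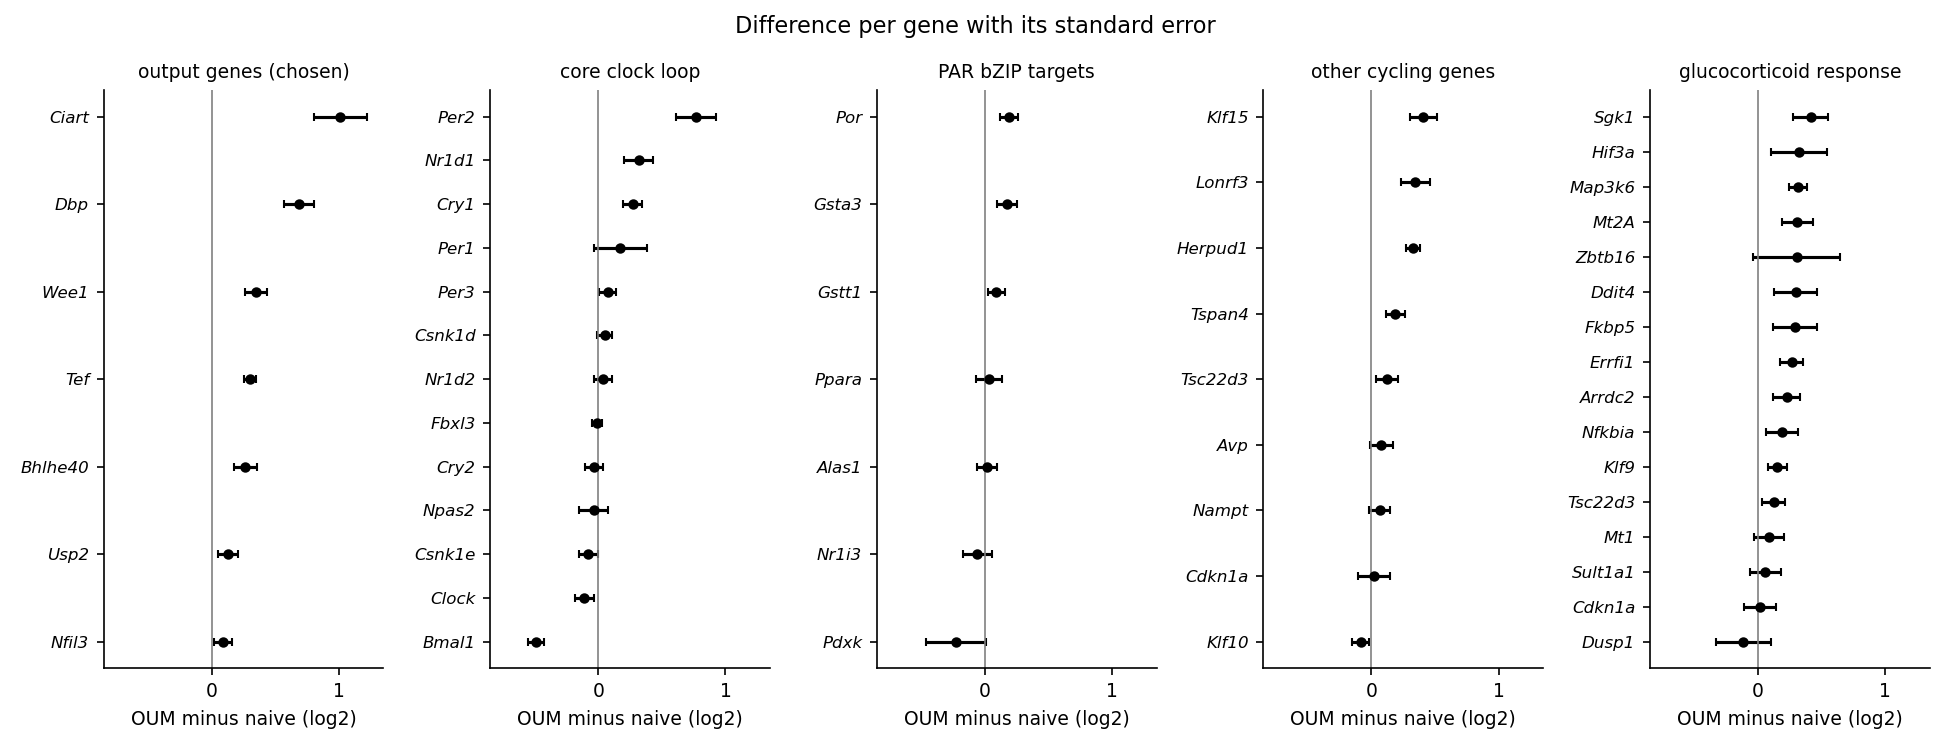
Difference between OUM and naive TGs per gene in log2 units, with the standard error of the fit, for the measured output genes and 4 other lists. The output genes were chosen on this contrast. *Ciart* (1.01) and *Per2* (0.77) lie farthest right, and *Bmal1* (-0.49) farthest left.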

How the data were processed

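Signals of 10 arrays, 5 from OUM and 5 from naive rats, were analysed. The authors scanned the 1-colour arrays and digitized them with Agilent Feature Extraction 10.7.1.1, and the deposited intensity per spot is the processed signal after background subtraction. The authors' value table, normalized with GeneSpring GX, was checked against the scanner values and holds a ratio of that signal to 1 constant per array. The constants were 1902 to 2156 signal units, close to the 75th percentile over the probes of each array (1909 to 2175) and below that over all gene spots used here. The ratio is linear, and the medians of the columns were 0.115 to 0.123. It was used as an alternative.

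Control spots were left out, and so were outlier spots unless a probe had no other spot on that array. The remaining spots of each probe were averaged. The deposited intensity was put on the log2 scale minus that of the 75th percentile over all 58717 gene spots of the array. Outlier spots were included in that percentile. Accessions were matched to RefSeq symbols (GRCr8), which named 18438 of 30367 probes. A gene was represented by its brightest probe. Features had to clear the background in each of the 5 rats of at least 1 group, and 19271 did. OUM was compared to naive by limma 3.58.1 (lmFit then eBayes, two-sided, Benjamini-Hochberg over all features) in R 4.3.3, using statmod 1.5.0 and the data.table package 1.17.8. The fit was tested on simulated data. The number of arrays limits the precision. The p-values rest on the spread between rats with 1 array each, and the main fit does not separate rat, array and slide.

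Named genes are all listed output genes, genes of the other lists at an unadjusted p under 0.05, 6 core loop genes whatever their p, and the 5 most like *Dbp*. *Alas1*, *Pdxk*, *Fkbp5*, *Npas2* and *Scn9a* were named after their values were seen. The listed genes, the other lists and the tests were chosen with earlier results of these data known. The normexp alternative (offset 50) used the median spot signal, since the scanner columns used here held no mean spot signal.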

Additional observations from a re-analysis of the deposited data

Results flagged for a closer look

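Among 24 genes named and screened in 52 groups of 5 rats, counting every probe of the output genes, 2 groups held a rat whose gap to its nearest neighbour took most of the range of the group. Chance flags about 1 in 20 such groups. *Usp2* was at 0.0456 in naive rat 4, the naive array of slide 2, and the nearest naive rat was at -0.198. *Nr1d1* was at -2.27 in OUM rat 2, against -2.38 in the nearest OUM rat. The cause was not tested for either.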

How the results depend on the processing

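*Dbp* differed by 0.61 to 0.79, *Tef* by 0.25 to 0.32 and *Ciart* by 0.68 to 1.28 over all alternatives and with each array left out, and each stayed above 0. The number of output genes with no overlap was 4 or 5 in every setting. It is taken from the normalized values, so blocks, array weights or another test could not change it. On slide 2 alone only 1 naive array had to be exceeded. The share over all features was computed for the main setting only, so the count says little about robustness. The same limit holds for the list counts of the other settings given below. The core loop count of lower genes was 2 with the mean of a gene's probes and with every probe tested separately, since *Npas2* then passed through its dimmer probe. The core loop count of higher genes, 3 in the main setting, was 4 in both of these and 2 with the methods' t-test. The count of higher PAR bZIP targets was 1 with normexp, the mean of probes, no filter, slide as a block, the replicate block and the methods' t-test, and 0 without naive 1, OUM 1 and OUM 2. With single arrays left out it was 0 to 2 (1 without naive 2, naive 3, OUM 4 or OUM 5), and the lower count was 0 to 1, the 1 without naive 4. Other cycling genes gave 2 higher and 1 lower on slide 1 alone and 1 higher on slide 2 alone. The glucocorticoid list gave 7 higher and 1 lower on slide 1, 1 higher and 3 lower on slide 2, 7 higher with array weights, and 3 to 8 higher with single arrays left out, 8 of them without naive rat 4. The slide 2 fit assumes its lone naive array to vary like the OUM arrays. The covariation of *Per2* with *Dbp* was 0.92 after slide means were removed, with 288 permutations in place of 14400, and no longer passed, nor did it at 0.91 without the 2 rats whose *Dbp* deviations were farthest from the median, also chosen after seeing the data. With single rats left out, chosen after seeing the data, r was 0.78 to 0.93 for *Ciart* and 0.92 to 0.98 for *Per2*, and both kept passing. The cause of the other changes was not tested. Over all features, the deviations of same-numbered OUM and naive rats correlated at -0.09 to 0.33. With the replicate block the SE fell from 0.119 to 0.075 for *Dbp*, from 0.208 to 0.116 for *Ciart* and from 0.157 to 0.083 for *Per2*. It rose from 0.046 to 0.048 for *Tef* and from 0.074 to 0.091 for *Cry1*. Whether same-numbered rats share a condition that these genes follow was not tested. Apart from the PAR bZIP targets, the replicate block moved no count by over 1.5 times. *Nfil3*, *Bhlhe40* and *Ciart* were dim, which limits their precision.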
